A study of Mus musculus with 6 samples.

Results

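Chromatin accessibility was examined at 4 genes that mark regulatory T cells, Foxp3, Lrrc32, Nrp1 and Gpr83, in peak lists from 6 ATAC-seq libraries of mouse helper T cells. ATAC-seq cuts open DNA with a transposase, and a peak is a stretch where more fragments pile up than in the background. Overlapping or adjoining peaks of the 6 lists were merged, which gave 236017 regions, and the 73 that lay in the body of 1 of the 4 genes or within 30 kb on either side of it (mm10) were taken: 8 at Foxp3, 18 at Lrrc32, 40 at Nrp1 and 7 at Gpr83. Given the 4 genes, their regions were taken by position only and by no measured value. The genes themselves were chosen with earlier results of these data known. The libraries came from naive CD4+CD62L+ T cells of C57BL6/J mice, isolated from spleen and cultured for 5 days with anti-CD3 and anti-CD28 as Th9, Th2 or Th17 cells, with 2 libraries for each subset, labelled WT1 and WT3 (replicates 1 and 3), so that all groups are WT. Th2 cultures received IL-4, human IL-2 and anti-IFN-γ, and Th9 cultures received the same additions plus human TGF-β1. Th17 cultures received IL-6, TGF-β1, IL-23, IL-1β and antibodies to IFN-γ, IL-4 and IL-2. No regulatory T cell library was analysed here, and the labels do not say whether the 2 libraries of a subset came from separate mice.

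Regulatory T cells restrain immune responses, and their identity rests on the transcription factor FOXP3. The Foxp3 gene is controlled by its promoter and by conserved elements in its introns, of which a CpG-rich stretch of the first intron, known as CNS2 or the Treg-specific demethylated region, loses its DNA methylation and opens in stable regulatory T cells. Lrrc32 encodes GARP, which holds latent TGF-β on the surface of activated regulatory T cells. Nrp1 encodes neuropilin-1, a receptor for semaphorins and VEGF that marks regulatory T cells made in the thymus. Gpr83 encodes a G-protein-coupled receptor that is abundant in regulatory T cells. Naive helper T cells that receive TGF-β can switch Foxp3 on, whereas IL-6, used here for Th17 cells, opposes this.

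The lists held 100317 to 142213 peaks, and the background against which their peaks were called was 5.65 fragments deep in Th9 replicate 1 and 11.2 to 17.7 fragments deep in the other libraries. Each peak carries a fold enrichment over that background, and the weakest peak listed was 1.71-fold to 2.11-fold enriched, so a region without a peak is one below that level and need not be closed. Peak height is given below as the percentile of the fold within the peak's own list, where 100 is the highest peak of that library, and where several peaks fell in a region the highest was used. The pairs of values are replicates 1 and 3 in that order. As a check of the labels, Il17f and Il23r had promoter peaks in the Th17 libraries alone, Il13 in the Th2 libraries alone, and Il9 stood at 88.7 and 90.7 in Th9 against 37.1 and 44.4 in Th2 with no peak in Th17. The T cell genes Cd3e, Cd3g, Lck, Cd5 and Cd28 had promoter peaks in all 6 libraries and Cd4 in 4. The B cell genes Cd79a, Ms4a1 and Pax5, the myeloid genes Csf1r, Lyz2, Itgam and Spi1 and the NK cell gene Ncr1 had none in any library, Klrb1c had 1 library, Cd14 had 3, and Ebf1 and Eomes had all 6.

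The sequences on which the results below turn are shown first, in lower case with matches to 5 short motifs in capitals. The motifs, searched on both strands, were those of AP-1 (TGANTCA), STAT factors (TTCNNNGAA), the cyclic AMP response element or CRE (TGACGTCA), GATA factors (AGATAA) and RUNX factors (TGTGGT), and no match shared bases with another. The Foxp3 promoter is shown because it held no peak, the Gpr83 promoter because it had a peak in every library, and both are taken from the RefSeq promoter table for GRCm38.p6. The other 4 are genomic reference sequence of GRCm38.p6. They are the whole Foxp3 intron 1 peak of Th9 replicate 3, and 300 bases around the stretch shared by the most libraries for 3 regions whose calls or heights differed between subsets.
Foxp3 promoter, chrX:7579426-7579566, + strand: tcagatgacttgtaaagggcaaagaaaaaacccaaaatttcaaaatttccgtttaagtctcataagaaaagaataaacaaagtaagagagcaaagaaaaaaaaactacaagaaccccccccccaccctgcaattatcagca
Gpr83 promoter, chr9:14859960-14860209, + strand: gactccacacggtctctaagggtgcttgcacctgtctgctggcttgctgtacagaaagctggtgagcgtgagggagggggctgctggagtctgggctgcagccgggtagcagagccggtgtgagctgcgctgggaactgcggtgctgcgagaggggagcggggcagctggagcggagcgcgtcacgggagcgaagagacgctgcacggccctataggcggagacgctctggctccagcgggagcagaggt
Foxp3 intron 1 peak, chrX:7584065-7584309, + strand: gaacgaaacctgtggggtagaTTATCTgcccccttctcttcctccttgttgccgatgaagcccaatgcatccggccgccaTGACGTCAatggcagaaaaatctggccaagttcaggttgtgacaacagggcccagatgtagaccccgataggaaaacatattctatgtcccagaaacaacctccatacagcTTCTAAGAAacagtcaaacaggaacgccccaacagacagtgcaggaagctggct
Nrp1 upstream region, chr8:128351222-128351521, + strand: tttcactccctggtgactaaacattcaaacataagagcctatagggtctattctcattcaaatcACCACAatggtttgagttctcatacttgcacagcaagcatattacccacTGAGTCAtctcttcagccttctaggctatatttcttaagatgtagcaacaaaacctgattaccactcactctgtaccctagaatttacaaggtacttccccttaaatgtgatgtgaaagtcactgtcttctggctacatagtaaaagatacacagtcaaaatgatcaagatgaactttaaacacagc
Nrp1 intron region of Th9 and Th17, chr8:128489632-128489931, + strand: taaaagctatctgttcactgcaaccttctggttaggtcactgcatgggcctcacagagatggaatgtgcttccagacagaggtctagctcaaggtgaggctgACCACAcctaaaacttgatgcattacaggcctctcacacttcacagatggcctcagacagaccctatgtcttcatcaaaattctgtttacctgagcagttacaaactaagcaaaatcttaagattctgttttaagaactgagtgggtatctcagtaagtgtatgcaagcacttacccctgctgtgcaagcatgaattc
Lrrc32 downstream region of Th9 and Th2, chr7:98531519-98531818, + strand: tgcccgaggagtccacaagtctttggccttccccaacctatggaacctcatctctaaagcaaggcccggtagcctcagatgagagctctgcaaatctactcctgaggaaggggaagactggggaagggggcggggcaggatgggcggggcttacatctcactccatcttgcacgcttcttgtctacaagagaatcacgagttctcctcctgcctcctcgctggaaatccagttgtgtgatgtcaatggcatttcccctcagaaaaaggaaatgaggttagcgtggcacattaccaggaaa
The Foxp3 promoter line ends where an annotated first exon begins, and the search covered the 250 bases before the RefSeq start.

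The Foxp3 intron 1 peak held 1 CRE match, 1 STAT match and 1 GATA match. Among windows of 245 bases centred on all 236017 regions, 0.2% held the CRE letters, 7.0% the STAT letters and 10.1% the GATA letters. The Nrp1 upstream region held 1 AP-1 match and 1 RUNX match, and the Nrp1 intron region held 1 RUNX match. Of 300-base windows centred on all regions, 11.7% held the AP-1 letters and 22.6% the RUNX letters. None of the 5 motifs was found in the 300 bases of the Lrrc32 region or in the 250 bases before the RefSeq starts of Foxp3, Nrp1 and Gpr83. Among 32544 promoters of the same length, 6.7% held the AP-1, 7.0% the STAT, 1.6% the CRE, 10.0% the GATA and 14.0% the RUNX letters. A match describes the letters in a window and does not show binding. The 250 bases before the start held 6 CpG dinucleotides at Foxp3, 11 at Nrp1 and 18 at Gpr83, and the median over all such promoters was 6.

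Foxp3 (ENSMUSG00000039521.13, chrX:7573644-7595245, + strand) had no peak over the promoters of its 4 upstream starts in any of the 6 libraries. A promoter was taken as 1000 bp before to 100 bp after an annotated start, and these starts of the GENCODE basic set lie at 7579567, 7579669, 7579676 and 7580483 on chrX. This held with the window widened to 2000 bp on either side. Exon 1, which starts at 7579676 in the longest coding transcript, and introns 2 and 4 to 13 were without a peak as well. Within the body of that transcript 3 places had a peak, and each is given singly.

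Intron 1 of Foxp3 (chrX:7579847-7585570, 5724 bp) held 1 peak, and only in Th9 replicate 3. It spanned chrX:7584065-7584309 (245 bp), began 4498 bp after the first start and stood at the 45.2 percentile of its list, with a fold of 2.30. The other Th9 library and the 4 Th2 and Th17 libraries listed no peak in this intron, so the call was not repeated within its subset. Th9 replicate 1 was the shallowest library, and its weakest listed fold was 2.11. The peak held 7 CpG dinucleotides against a median of 2 over all 245-bp windows of the intron. The window richest in CpG, chrX:7583905-7584149, held 10 and shared 85 bp with the peak, so the peak lay in part over the stretch of this intron that is densest in CpG. CNS2 itself was not placed here by published coordinates. In a bulk library, a weak peak from all cells and a strong one from a few cells cannot be told apart, and the part of either in this peak was not tested.

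The other internal peak near the 5′ part of Foxp3 was also in 1 library. Th9 replicate 1 had a peak of 271 bp at chrX:7586100-7586370, from intron 3 into exon 4, at the 19.7 percentile, and the windows of the internal starts at 7586273 and 7586355 contain it. The last exon, exon 14, carried a region at chrX:7593120-7593696 (577 bp) that was called in 5 libraries. Its percentile was 52.4 and 46.4 for Th9, 83.2 and 80.0 for Th2 and 53.5 for Th17 replicate 1, with no peak in Th17 replicate 3. Both Th2 values lay above all others, but no test was run because 1 library had no value. Only 2 libraries kept this peak when a −log10 q of at least 5 was required, and 1 when a fold of at least 4 was required.

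Upstream of Foxp3 all libraries were open. The region at chrX:7570414-7575190 (4777 bp) covers the promoters of Ppp1r3f, a protein phosphatase 1 regulatory subunit gene on the opposite strand, and of Flicr, a long non-coding RNA gene next to Foxp3 that is known to modulate Foxp3 expression. It was the highest region of the window, at 91.4 and 93.5 for Th9, 86.4 and 86.3 for Th2 and 93.2 and 89.2 for Th17. The values overlap between Th9 and Th17, and both Th2 values are the lowest. The region also contains the start at 7573644 of a Foxp3 transcript that is outside the GENCODE basic set, which was therefore called in all 6 libraries. Whether this signal belongs to Ppp1r3f, Flicr or Foxp3 cannot be told apart from peak position.

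The next region upstream, chrX:7564869-7568136 (3268 bp), lies in an intron of Ppp1r3f. Its percentile was 84.3 and 83.1 for Th9, 81.3 and 83.1 for Th2 and 62.7 and 32.7 for Th17. Every Th9 and Th2 value was above both Th17 values, and the peaks also covered less of it in Th17, 772 and 1223 bp against 3053 to 3246 bp in the other 4 libraries. The difference was 36.0 percentile points for Th9 minus Th17 (SE 10.5, limma adjusted p = 0.192) and 34.5 for Th2 minus Th17 (SE 10.5, limma adjusted p = 0.188), neither past the threshold of 0.05. On the log2 scale of quantile-normalized fold both passed, with limma adjusted p = 0.018 and 0.0355, and without Th17 replicate 1 the Th2 minus Th17 difference passed on the percentile scale (limma adjusted p = 0.042).

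The remaining Foxp3 regions lie at neighbouring genes. The promoter of Ccdc22, which encodes a subunit of an endosomal recycling complex, carried a region at chrX:7605044-7605817 in all 6 libraries, at 81.3 and 77.5 for Th9, 72.5 and 66.5 for Th2 and 78.4 and 70.2 for Th17. Both Th9 values lay above both Th2 values, and the Th17 values overlapped both subsets. An intron of the calcium channel gene Cacna1f carried a region of 375 bp at chrX:7618297-7618671 that was called in both Th17 libraries alone, at 71.5 and 54.6. A 196-bp peak at chrX:7555470-7555665, outside any gene, was listed in Th2 replicate 3 alone at the 14.4 percentile.

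**Figure D1:**
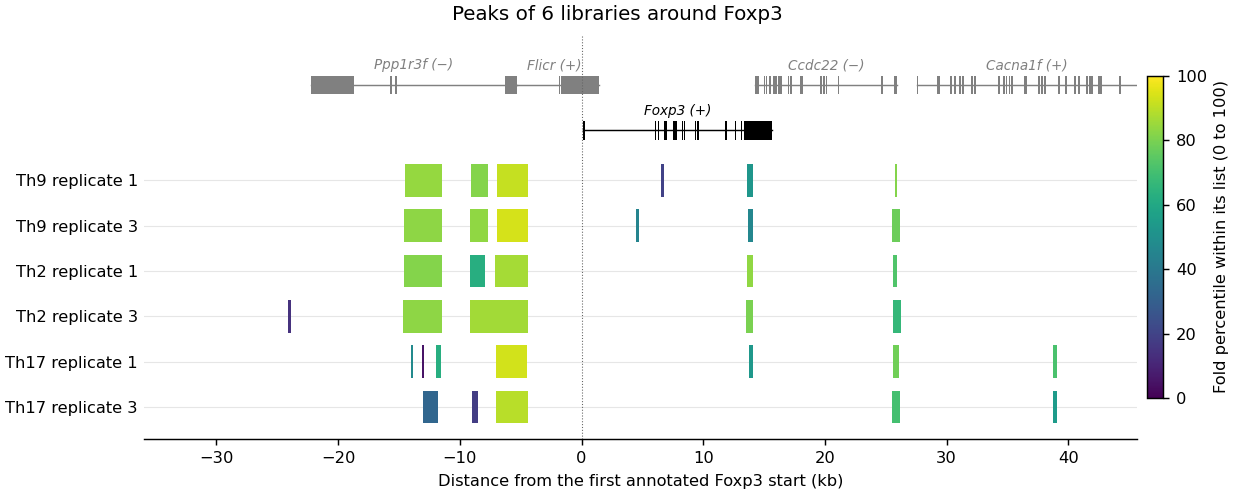
Peaks of the 6 libraries (rows) by distance from the first annotated Foxp3 start in kb, coloured by the percentile of their fold within their list, with the exons of Foxp3 (black) and of its neighbours (grey) above. The promoter is empty in all 6 rows, the intron 1 peak is in Th9 replicate 3 alone, and the 2 wide upstream regions are present in every row.

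Lrrc32 (ENSMUSG00000090958.2, chr7:98489283-98502181, + strand) had an open promoter in every library. The region over it, chr7:98488345-98490794 (2450 bp), stood at 80.7 and 78.5 for Th9, 65.8 and 74.4 for Th2 and 66.3 and 60.1 for Th17. Both Th9 values were above all others, while Th2 and Th17 overlapped, and the Th9 minus Th17 difference of 16.4 points (SE 8.42, limma adjusted p = 0.501) did not pass. An internal start of the gene had a weak peak at chr7:98493936-98494279 in Th9 replicate 1 (11.5) and Th2 replicate 3 (36.6). The upstream region at chr7:98480795-98481637, at −8.5 kb, was called in all 6 libraries at 51.4 to 79.6.

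The Lrrc32 region with the highest mean percentile over the libraries that called it lay 41.9 kb after the start, at chr7:98531145-98532071 (927 bp), outside any gene, and was called in Th9 and Th2 alone. Its percentile was 81.8 and 87.6 for Th9 and 61.0 and 78.5 for Th2, and neither Th17 list held a peak there. In Th2 replicate 1 the promoter region and the one at −8.5 kb stood higher. A weaker region 20.6 kb after the start, chr7:98510033-98510592, had the same pattern, at 33.0 and 60.1 for Th9 and 10.1 and 11.2 for Th2. At the start of the last exon, which is coding there, chr7:98497783-98498864 was called in Th9 alone, at 44.2 and 18.2. In an intron of the neighbouring receptor guanylate cyclase gene Gucy2d, at −19.8 kb, chr7:98468893-98470887 was called in Th9 and Th17 alone, at 20.9 and 10.7 in Th9 and 19.8 and 32.7 in Th17. Apart from the region at 41.9 kb, the regions with a subset pattern stood in the lower or middle part of their lists.

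Th9 replicate 3 stood apart at Lrrc32. It held 17 peaks in this window against 9 in Th9 replicate 1, 8 in each Th2 library, 5 in Th17 replicate 1 and 6 in Th17 replicate 3. All 7 Lrrc32 regions called in a single library came from it, between the 1.96 and the 35.6 percentile of its list, although this list was not long (101102 peaks).

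Gpr83 (ENSMUSG00000031932.14, chr9:14860210-14870789, + strand) was open over its promoter in all 6 libraries. That region, chr9:14859896-14860717 (822 bp), stood at 84.5 and 70.9 for Th9, 83.2 and 77.0 for Th2 and 79.4 and 70.2 for Th17, and the subsets overlap. A region over a coding exon, chr9:14866929-14867488, was called in all 6 at 73.0 and 64.1 for Th9, 67.3 and 79.4 for Th2 and 84.5 and 80.6 for Th17. Both Th17 values were the highest there, with Th2 replicate 3 close below them. The region 32.2 kb after the start, chr9:14892043-14892679, lies in an intron of Izumo1r, which encodes folate receptor 4, itself a surface marker of regulatory T cells, and was called in all 6 libraries at 49.7 to 75.3.

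Between Gpr83 and Izumo1r, chr9:14884687-14885517 (831 bp) was called in Th9 and Th2 alone, at 61.8 and 63.9 for Th9 and 46.2 and 64.5 for Th2. The region at chr9:14900300-14905675, over the Izumo1r promoter, counts as called in all 6 libraries but extends past the end of the window, and of its peaks only the one of Th2 replicate 3 reaches into the window.

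**Figure D2:**
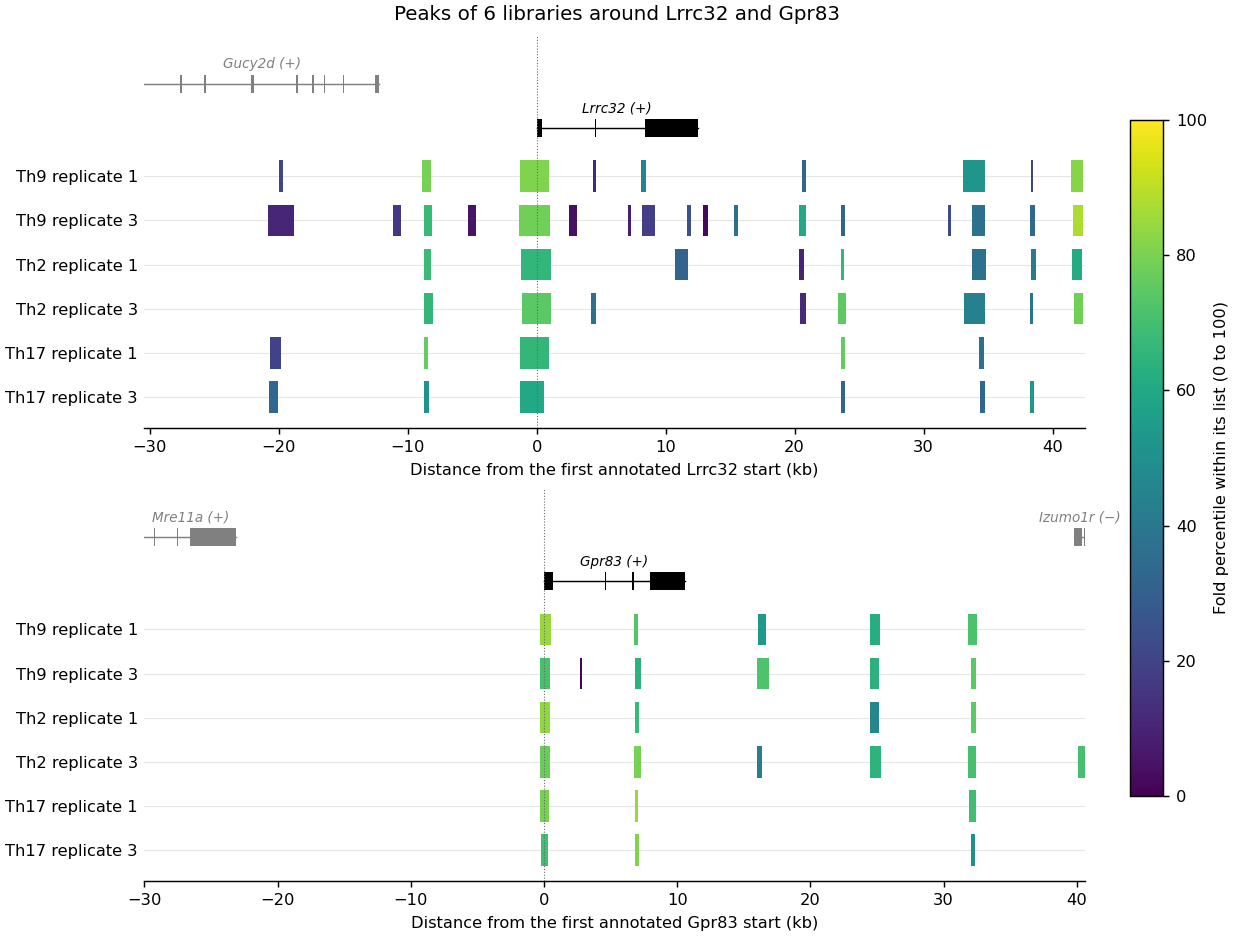
Peaks of the 6 libraries (rows) at Lrrc32 (top) and Gpr83 (bottom) by distance from the first annotated start in kb, coloured by the percentile of their fold within their list, with exons above. Both promoters have a peak in every row, the peaks at 41.9 kb (Lrrc32) and 24.9 kb (Gpr83) are in the Th9 and Th2 rows only, and Th9 replicate 3 has the most peaks at Lrrc32.

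Nrp1 (ENSMUSG00000025810.9, chr8:128358604-128503363, + strand) is the longest of the 4 genes and held 40 of the 73 regions, 14 of them called in all 6 libraries. Its promoter region, chr8:128356848-128360195 (3348 bp), stood at 88.9 and 83.5 for Th9, 90.8 and 90.1 for Th2 and 85.9 and 87.0 for Th17. The Th2 values were the highest by a small margin. The 3 highest regions of the locus were all called in every library. An intronic region 32.2 kb after the start, chr8:128390880-128392147, stood at 89.0 and 86.3 for Th9, 96.3 and 97.2 for Th2 and 90.2 and 88.9 for Th17. A second intronic region at 62.2 kb, chr8:128420201-128422770, stood at 90.7 and 85.3 for Th9, 96.6 and 94.4 for Th2 and 91.3 and 83.6 for Th17. In both introns the Th2 libraries were above the other 4, and Th9 and Th17 overlapped. The third, chr8:128505840-128506614, lies just after the gene and ranged from 85.4 to 91.2 without separating the subsets. At 32.2 kb neither Th9 minus Th2 (−9.12 points, limma adjusted p = 0.29) nor Th2 minus Th17 (7.18, limma adjusted p = 0.115) passed. Both passed on quantile-normalized log2 fold (limma adjusted p = 0.0143 and 0.0202). Th2 minus Th17 also passed on percentiles with the replicate number as a block (limma adjusted p = 0.0476). At 62.2 kb Th2 minus Th17 passed on quantile-normalized log2 fold (limma adjusted p = 0.0395) and not on percentiles (0.28).

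Only 1 Nrp1 region passed the height test on percentiles over all 6 libraries with subset as the only term. It lies upstream, at chr8:128351065-128353001 (1937 bp, at −8219 to −6283 bp from the first start), outside any gene. Its percentile was 90.5 and 86.2 for Th9, 89.7 and 95.1 for Th2 and 64.6 and 54.6 for Th17. Neither Th17 value reached any value of the other subsets, and the peaks covered 225 and 386 bp of it in Th17 against 816 to 1937 bp in Th9 and Th2. Th2 was higher than Th17 by 32.8 points (92.4 ± 3.82 against 59.6 ± 7.05, SD, n = 2 each, SE of the difference 5.89, limma adjusted p = 0.0429). Th9 (88.4 ± 3.07, SD, n = 2) was higher than Th17 by 28.8 points (SE 5.89, limma adjusted p = 0.0809), which did not pass. This difference passed on the quantile-normalized log2 scale (limma adjusted p = 0.0108), with the replicate number as a block (0.0256), among peaks of at least 2.2-fold (0.0362) and without Th17 replicate 1 (0.0317). The Th2 call passed in the same 4 settings, with limma adjusted p of 0.0014, 0.0115, 0.0214 and 0.0155 in that order, and the difference was 68.0 points among peaks of at least 2.2-fold, where percentiles were ranked anew. It was lost on leaving out any other library, with limma adjusted p from 0.0572 without Th17 replicate 3 to 0.436 without Th2 replicate 3, and in a fit without a trend in the prior variance (limma adjusted p = 0.165).

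Further Nrp1 regions with a peak in 5 libraries had no test over all 6. The region at −25.7 kb, chr8:128332904-128334205, stood at 90.2 and 89.9 for Th9, 96.6 and 98.3 for Th2 and 65.8 for Th17 replicate 1, with no peak in Th17 replicate 3. Without that library it was tested and was higher than in the remaining Th17 library by 24.3 points in Th9 (limma adjusted p = 0.0346) and by 31.7 points in Th2 (limma adjusted p = 0.0134), where the lone Th17 library is assumed to vary like the other groups. The intronic region at 49.9 kb, chr8:128408758-128409656, stood at 35.3 and 66.7 for Th9, 94.1 and 95.5 for Th2 and 56.6 for Th17 replicate 1, again with no peak in Th17 replicate 3. Both Th2 values were the highest at each.

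Other Nrp1 regions differed by being listed in some subsets alone. An intronic region 129.8 kb after the start, chr8:128487990-128490102 (2113 bp), was called in Th9 and Th17 alone, at 83.6 and 61.1 in Th9 and 83.8 and 73.0 in Th17. Neither Th2 list held a peak there, although Th2 replicate 1 and replicate 3 listed more Nrp1 regions (25 and 30) than the other libraries (22 to 24). Only Th2 libraries called chr8:128445621-128446136, an intronic region at 86.6 kb, at 27.2 and 55.0. An intronic region at 55.7 kb, chr8:128414669-128415294, was called in Th2 and Th17 alone, at 68.9 and 70.8 in Th2 and 65.5 and 25.6 in Th17.

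Nrp1 had 3 regions called in Th9 and Th2 alone. The widest, chr8:128501798-128504877 (3080 bp), covers the 3′ end of the gene and stood at 76.4 and 80.9 for Th9 and 70.3 and 62.5 for Th2. The intronic region at 95.7 kb, chr8:128454738-128455186, stood at 51.7 and 36.9 for Th9 and 77.7 and 85.4 for Th2, so the order of the subsets was the opposite. At 125.6 kb, chr8:128484519-128485322 stood at 71.5 and 28.9 for Th9 and 61.4 and 58.3 for Th2, where the spread between the Th9 libraries was larger than the difference between the subsets.

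**Figure D3:**
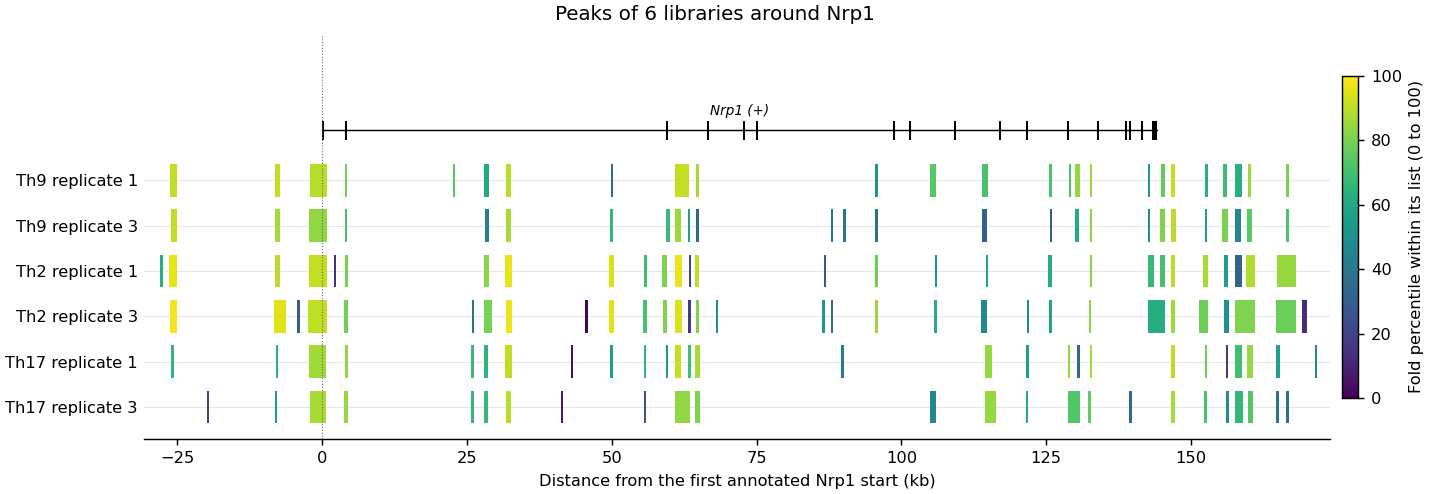
Peaks of the 6 libraries (rows) at Nrp1 by distance from the first annotated start in kb, coloured by the percentile of their fold within their list, with the exons of Nrp1 above (narrow peaks are drawn at a minimum visible width). The promoter and the introns at 32.2 and 62.2 kb are bright in all rows, and the peak at −7.3 kb is darker and narrower in the 2 Th17 rows.

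Over the 4 genes together, 24 of the 73 (32.9%) had a peak in every library, against 26.4% of the 148424 regions within 30 kb of any protein-coding gene, and 23 were called in 1 library, against 33.4% of those regions. The single-library regions were narrow and weak, with a median width of 269 bp and a median percentile of 16.0, and those called in all 6 had a median width of 1466 bp and a median percentile of 74.6. The corresponding medians near any protein-coding gene were 267 bp and 21.04 for 1 library and 1460 bp and 77.1 for all 6. Th9 replicate 3 gave 9 of the 23 single-library regions.

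Regions called in both Th9 and both Th2 libraries and in neither Th17 library numbered 6 (8.2%), of which 3 were at Nrp1, 2 at Lrrc32 and 1 at Gpr83, against 2.45% near any protein-coding gene. Regions of Th9 and Th17 alone numbered 2 (2.7%), against 0.32%. With 1 region each (1.4%), the remaining patterns were near or below their background of 1.53% for Th9 alone, 3.07% for Th2 alone, 1.71% for Th17 alone and 1.43% for Th2 and Th17 alone. Regions of 1 gene share a locus and are not independent, so these shares are a description without a test. When only peaks with −log10 q from 5 upward were kept, the regions of Th9 and Th2 alone numbered 2 and those called in all 6 numbered 11.

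Heights were compared by limma over the 50493 regions of the genome called in all 6 libraries, among them 24 at the 4 genes. For Th9 against Th2 no member region passed, 5 had an unadjusted p under 0.05, and the lowest limma adjusted p was 0.29. In the genome 0.0% were called higher in Th9 and 0.0% higher in Th2, although 5146 regions had an unadjusted p under 0.05. For Th9 against Th17 no member region passed either, and 5 had an unadjusted p under 0.05, against 6027 of the 50493 regions. Of all regions 0.224% were called higher in Th9 and 0.0178% higher in Th17. For Th2 against Th17 the Nrp1 upstream region alone passed, and 6 member regions had an unadjusted p under 0.05, against 6056 of the 50493. Here 0.727% of all regions were called higher in Th2 and 0.0297% higher in Th17.

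The median difference over the 24 member regions was −2.21 points for Th9 minus Th2 (−0.52 over all regions), 2.44 for Th9 minus Th17 (0.081 over all) and 6.01 for Th2 minus Th17 (0.19 over all). Of the 24, 10 were higher in Th9 than in Th2, 16 higher in Th9 than in Th17 and 18 higher in Th2 than in Th17. The 3 comparisons share libraries, so these counts are not independent of one another. The directions were not counted over all regions, so the counts have no background beside them. An intronic Nrp1 region 115.1 kb after the start, chr8:128473100-128475656, went the other way, at 71.1 and 30.4 for Th9 and 58.9 and 46.7 for Th2 against 84.3 and 84.1 in Th17, and did not pass on the percentile scale (Th2 minus Th17 −31.4 points, SE 13.8, limma adjusted p = 0.406), though it passed on the quantile-normalized log2 scale (limma adjusted p = 0.00605).

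The share of each window covered by peaks was compared as a single value per library. At Foxp3 it was 10.1 ± 0.458% for Th9, 10.6 ± 1.17% for Th2 and 6.09 ± 0.653% for Th17 (SD, n = 2 each, exact permutation p = 0.133). Both Th17 values, 5.63 and 6.55%, were below the other 4, which ranged from 9.79 to 11.5%. Much of this lay upstream of the Foxp3 starts. Peaks covered 772 and 1223 bp of chrX:7564869-7568136 in Th17, against 3053 to 3246 bp in Th9 and Th2. At chrX:7570414-7575190 they covered 2575 and 3108 bp against 3926 to 4730 bp. The Cacna1f intron region went the other way, with peaks in Th17 alone. At Lrrc32 the share of the window was 13.3 ± 5.47% for Th9, 9.14 ± 0.269% for Th2 and 5.61 ± 0.0291% for Th17 (exact permutation p = 0.0667). The Th9 spread came from Th9 replicate 3 at 17.1%, and Th9 replicate 1 at 9.41% was next to the Th2 libraries at 8.95 and 9.33%.

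At Nrp1 the order was different, with 9.22 ± 0.372% for Th9, 13.8 ± 2.53% for Th2 and 9.32 ± 1.24% for Th17 (exact permutation p = 0.2). At Gpr83 the share was 4.49 ± 0.295% for Th9, 3.95 ± 1.59% for Th2 and 1.93 ± 0.316% for Th17 (exact permutation p = 0.2). The Th17 mean was the lowest at Foxp3, Lrrc32 and Gpr83, and the Th2 mean the highest at Nrp1. The Th2 lists also covered the most bases in total, 117.5 and 108.2 Mb against 80.66 to 101.8 Mb in the others. As a share of the list's base pairs, the Nrp1 ratio of Th2 to Th9 was 1.21 against 1.5 (exact permutation p = 0.6). With 15 ways to form 3 pairs the smallest possible p is 0.0667, so no locus could pass 0.05, and after Benjamini-Hochberg adjustment over the 4 loci the exact permutation p was 0.2 for each.

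**Figure D4:**
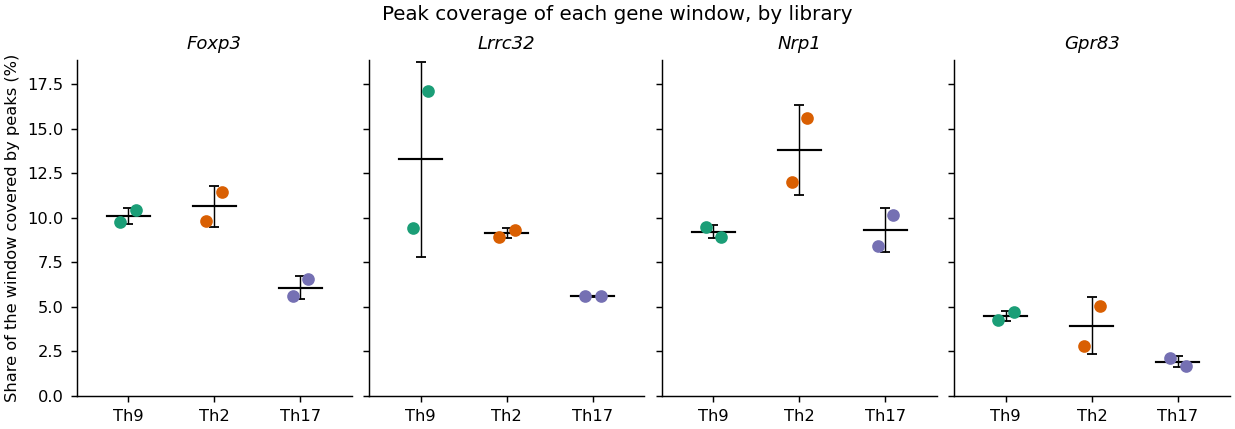
Share of each gene window (gene body plus 30 kb on either side) covered by peaks, in percent, with 1 point per library, a horizontal bar for the mean of the 2 libraries and an error bar of 1 SD. The Th17 points lie below the others at Foxp3, Lrrc32 and Gpr83, and Th9 replicate 3 lies at 17.1% at Lrrc32.

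The promoters of Lrrc32, Nrp1 and Gpr83 were thus called in all 6 libraries, as were 58.7% of 21951 protein-coding genes, and Foxp3, through its internal start, in 1 library. Of all protein-coding genes 13.3% had a promoter peak in 1 to 5 libraries and 28.0% in none. Among 38 other genes of regulatory T cells, 32 (84.2%) had a promoter peak in all 6 libraries, 6 in 1 to 5 and 0 in none. Among peaks of at least 4-fold, 19 of the 38 were called in all 6. The 32 include the IL-2 receptor chains Il2ra and Il2rb, the inhibitory receptors Ctla4, Tigit and Lag3, the ectonucleotidases Entpd1 and Nt5e and the transcription factors Ikzf2 and Ikzf4, whereas the Foxp3 promoter at its upstream starts had no peak.

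The 6 genes of the list with a partial pattern were as follows. Itgae, the integrin chain CD103, was called in Th9 alone at 33.6 and 23.5. Il10, the anti-inflammatory cytokine gene, was called in Th9 and Th2 alone at 48.5 and 44.6 for Th9 and 41.0 and 49.3 for Th2. The same held for Il12a, a subunit gene of IL-12 and IL-35, at 70.8 and 51.9 for Th9 and 61.6 and 63.1 for Th2. Neither Th17 library had a promoter peak at these 3 genes. Klrg1, an inhibitory lectin receptor, was called in replicate 3 of each subset alone, at 42.9 for Th9, 42.5 for Th2 and 24.7 for Th17. Il1rl1, the IL-33 receptor, was called in Th2 replicate 3 alone at 76.7, and the activation marker Cd83 in every library except Th17 replicate 1, at 79.8 to 95.9. The last 3 genes differed within subsets.

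Within the 32, Ccr8, a chemokine receptor of Th2 and regulatory T cells, was singled out after its values were seen. Its promoter stood at 94.5 and 93.4 for Th9 and 94.8 and 94.4 for Th2 against 59.1 and 49.9 in Th17, so the Th17 values did not overlap the others.

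**Figure D5:**
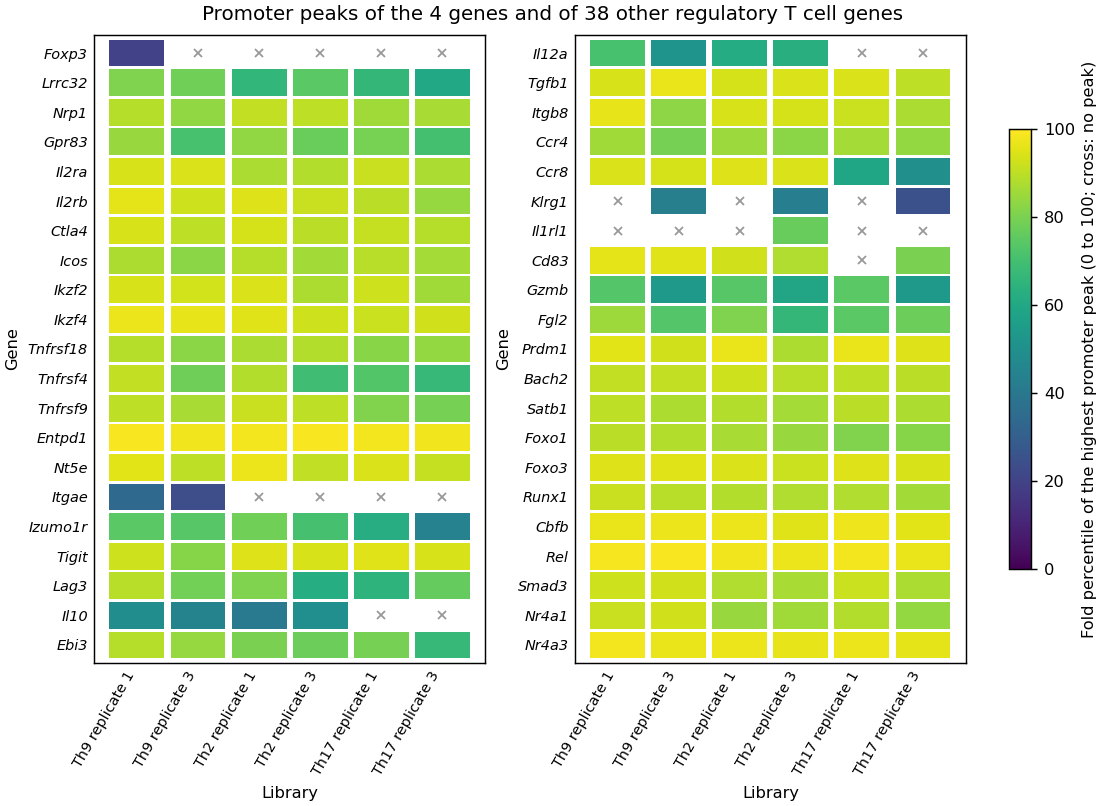
Percentile of the highest promoter peak within its list for the 4 genes and the 38 other regulatory T cell genes (rows) in the 6 libraries (columns), with a cross where no peak was listed. Foxp3 has 1 coloured cell, the other 3 genes have 6, and crosses are found at 6 genes of the list.

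Genes elsewhere with the most similar promoter values were sought as the smallest Euclidean distance over the 6 percentiles, with 0 where no peak was listed. For Nrp1 these were Kat2b (2.41), Rin3 (2.52) and Arhgap31 (2.54), and for Lrrc32 they were Cebpa (5.44), Arl5c (6.35) and Rhou (7.11). For Gpr83 they were Cmya5 (5.60), Tmem163 (5.67) and Foxa1 (5.82). For Foxp3, which had a value in Th9 replicate 1 only, Defa35 (0.030), Sema5b (0.106) and Col4a6 (1.06) were closest.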

How the data were processed

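ATAC-seq peak lists of 6 libraries (2 each of Th9, Th2 and Th17 cells) were analysed. Per the methods and the labels, the authors trimmed reads with Trim Galore 0.4.3, aligned them to mm10 with bowtie2, removed duplicates with Picard, excluded mitochondrial and low-quality alignments and called broad peaks for each library separately with MACS2 2.1.0 without input or local background. The threshold is not given in the sources used here. The deposited lists give each peak a fold enrichment (a ratio to the library's background), a −log10 p-value and a −log10 q-value, and an integer score that was not used. No read counts were used, so the depth was recovered from the fold and p-value of the most frequent flat peak. 1 marker gene of the cell type check is not reported here.

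Peaks that overlapped or touched were joined, a library called a region by at least 1 bp, and genes and starts came from GENCODE M21 (basic set). All 236017 regions lay within the GRCm38.p6 chromosomes. Percentiles of regions called in all 6 libraries were tested with limma 3.58.1 (R 4.3.3, trended empirical Bayes, subset as the only term, Benjamini-Hochberg over 50493 regions, threshold 0.05), which leaves 3 residual degrees of freedom plus a prior of 6.58. On simulated percentiles for Th9 minus Th2, 200 of 200 regions planted at a difference many times the spread were called, and 9 others of 50493. Simulated regions of like height shared the same spread. The simulation therefore checks that the fit runs, and cannot show power or error for smaller differences or for spread that varies between regions. Coverage was tested by an exact permutation of the between-subset sum of squares, which has no direction, over 15 pairings. The p-values measure only the spread between these libraries. The 4 genes, the list of 38 genes and the tests were chosen with earlier results of these data known.

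Named were every region at Foxp3 and, at the other genes, those over the promoter, those called in all libraries of 1 or 2 subsets and no other, those past the limma threshold and the 3 highest, besides list genes called in 1 to 5 libraries and the 3 most similar promoters. The Nrp1 regions at 115.1, 49.9 and −25.7 kb, the Gpr83 region over the Izumo1r promoter, the single-library peaks at Lrrc32 and Ccr8 were added after their values were seen.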

Additional observations from a re-analysis of the deposited data

How the results depend on the processing

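Keeping peaks with −log10 q from 5 upward or fold from 4 upward, the top 20000 peaks of each list and a call by at least 50% of the region gave 11, 4, 5 and 8 regions called in all 6 libraries, against 24, and 2, 2, 2 and 9 regions of Th9 and Th2 alone, against 6. With lists of equal length, windows of 10 or 50 kb, or without 1 library, the first count was 18 to 30 and the second 4 to 9. The Foxp3 upstream starts also had 0 libraries with 2000 bp on either side (the other alternatives only remove peaks and could not raise this count). Intron 1 had 0 libraries at a −log10 q of at least 5 and at a fold of at least 4, against 1, and the last exon had 2 and 1, against 5. Of the 38 list promoters, 19 were called in all 6 at a fold of at least 4, against 32, and 29 to 34 otherwise.

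Among the 24 member regions tested by limma, quantile-normalized log2 fold gave 1, 3 and 6 calls for Th9 with Th2, Th9 with Th17 and Th2 with Th17, against 0, 0 and 1. Its calls over the genome were split 1572 higher in Th9 and 1462 higher in Th17 (113 and 9 on percentiles) and 2546 higher in Th2 and 1210 higher in Th17 (367 and 15), and 511 higher in Th9 and 1100 higher in Th2, where percentiles gave 0. A fold of at least 2.2 gave 1 call for Th9 with Th17. No variance trend gave 0 for Th2 with Th17. At a −log10 q of at least 5, 11 member regions were left to test, without the Nrp1 upstream region, and 0 were called. Without 1 library the calls were 0 to 1 for Th9 with Th17 and 0 to 2 for Th2 with Th17. Over the genome, Th2 with Th17 had 0 calls without the variance trend and on leaving out any Th9 or Th2 library. It had 1238 calls without Th17 replicate 1 and 360 without Th17 replicate 3, against 382. The replicate block gave 0, 1 and 2 member calls, and 0, 1301 and 1929 over the genome against 0, 122 and 382. The deviations of same-numbered libraries correlated at 0.168 for Th9 with Th2, 0.0313 for Th9 with Th17 and −0.00984 for Th2 with Th17. With 2 libraries per subset these values cannot decide whether the numbers pair the libraries. Under 4 alternatives at 4 loci, the highest and lowest subsets in mean peak coverage were those of the report in 12 of 16 cases. Th9 became the highest at Foxp3 as a share of the list's base pairs, Th17 the lowest at Nrp1 on that scale and with lists of equal length, and Th2 the highest at Gpr83 at a −log10 q of at least 5. Th17 was the lowest at Foxp3, Lrrc32 and Gpr83 and Th2 the highest at Nrp1 in each case. The ratios of the report's own pair of subsets were 1.21 to 2.55, with exact permutation p from 0.0667 to 0.8. Peaks below 1.71-fold to 2.11-fold are not in the lists, which limits every absence stated. The causes of these shifts were not tested.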
